A study of Mus musculus with 5480 samples.

Results

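Early alveolar fibroblasts of the mouse lung were compared between postnatal day 7 (P7) and postnatal day 1 (P1), both in normal air. The cells were taken by the cell subtype label that the authors gave each cell, and 1120 of the 5480 cells of the series carried it in these groups. At P1 there were 362 cells labelled with 1 female mouse and 393 with 1 male, and at P7 there were 218 and 147. The labels do not say whether a mouse name stands for a single animal or for pooled animals of that sex, and it is counted here as 1 mouse. A few of the cells, 2 and 1 at P1 and 1 and 7 at P7 (female and male), carry a CD31 sort in their titles in place of the mesenchymal one. The series held single mesenchymal cells sorted from distal lung of 10 mice, 1 female and 1 male for each of embryonic day 18.5, P1, P7, P21 and P7 after hyperoxia (breathing air enriched in oxygen). Each cell had its own library, made in a plate well with the DNA-cutting enzyme Tn5 transposase. No genotype, strain or transgene is given in the sources used here, and the labels name no treatment other than hyperoxia. The mice at P7 after hyperoxia, with 212 and 242 cells of this subtype, entered the fits as a group of their own, which helps to set the spread between mice and the sex term and through these can move the fitted fold changes. Cells of embryonic day 18.5 were not used.

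Alveolar fibroblasts lie in the walls of the forming air sacs. After birth these walls are divided by new septa, for which mesenchymal cells lay down elastic fibres and collagen while they exchange growth factors with epithelium and capillaries. Some alveolar fibroblasts store neutral lipid and retinoid and are known as lipofibroblasts, and Tcf21, a transcription factor, and Limch1 and Npnt mark the lineage. Fibroblasts are also a source of chemokines, which attract leukocytes, and of acute phase and complement proteins.

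Markers of the subtype differed in the share of cells that held a read, given here without thinning. A read of Limch1 was found in 96.7% to 98.7% of cells, of Tcf21 in 89.8% to 95.9%, and of Enpep in 88.3% to 89.8%. Other markers were in fewer cells, Pdgfra in 15.6% to 34.3%, Foxf1 in 10.2% to 23.2% and Cdon in 2.04% to 4.59%. All 20 markers of the subtype in the table had reads in all 4 mice, which asks little at this depth. These shares were not compared with those of other subtypes. Levels of markers of other lineages are in CPM (counts per 1000000 reads, here with no further scaling). Of the endothelial markers, Cdh5 was at 0.635 and 0.0184 at P1 and at 0 in both P7 mice, whereas Kdr was highest in the male P7 mouse, at 3.03, and Emcn at P7, at 1.93 and 0.814. The 10 endothelial markers summed to 132 and 156 CPM at P1 and to 135 and 143 at P7, mostly through Ramp2, with a read in 55.0% to 57.3% of cells. Ptprc of leukocytes was between 0.0394 and 1.58. The summed CPM of 10 epithelial markers, mostly Sftpc, were 142 and 118 at P1 and 46.6 and 70.5 at P7, and those of 10 immune markers were 18.0 and 24.1 at P1 and 59.2 and 37.6 at P7. Lyz2 was the highest immune marker, at 8.76 and 12.1 CPM and then at 52.2 and 26.1. The 8 pericyte markers summed to 51.7 and 52.8 CPM at P1 and to 69.5 and 86.5 at P7, with Pdgfrb at 5.54 and 3.87 and then at 0.586 and 0.166. The 11 contractile markers, mostly Acta2, summed to 3495 and 4046 at P1 and to 1803 and 1801 at P7, with Myh11 of smooth muscle between 5.19 and 16.7. The 10 adventitial markers summed to 1714 and 1640 at P1 and to 2667 and 2513 at P7, with Pi16 at 2.41 or less. Dpt, Mfap5 and Cd34 were higher in both P7 mice than in both P1 mice, Mfap5 at 333 and 386 CPM and then at 564 and 510, and Cd34 at 271 and 211 and then at 372 and 339. Both P7 mice were below both P1 mice for 5 of the 9 adventitial markers tested (22% of all genes) and above them for 3 (19%). The part of these signals in the results below was not tested.

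The female P1 cells gave 215725933 reads, the male P1 cells 380641721, the female P7 cells 226894183 and the male P7 cells 138804517. Cells were thinned to 100000 reads, and those below that depth, 20 and 32 at P1 and 8 and 9 at P7, were left out. The median cell then had 2490.5 and 2433 detected genes at P1 and 2289.5 and 2032 at P7. Both P7 mice lay below both P1 mice, by 301 genes between the group means, and the exact two-sided permutation test gave p = 0.333, the smallest p that 2 mice against 2 allow. The 2 hyperoxia mice had 3537 and 4238 genes per cell. The main plates of the male P1 and male P7 mice shared 1 sequencing run, while the female P1 and female P7 mice were in different runs, so that age and run cannot be told apart in the females. The male pair gives the change within 1 run, apart from the 7 CD31-sorted cells of the male P7 mouse, which came from another run.

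Levels below are CPM of the reads summed over a mouse's cells, scaled by TMM, a normalization for library composition. They are not divided by gene length and so are compared between mice, not between genes. In summed reads, fewer cells with a transcript and less transcript per cell cannot be told apart. The share of cells with a read at 100000 reads per cell is therefore given for the genes the results turn on. Of 15306 genes tested with edgeR's quasi-likelihood test (term for sex, Benjamini-Hochberg adjustment, threshold 0.05), 2 were higher at P7 (0.0131% of genes tested) and 5 were lower (0.0327%). At an unadjusted p below 0.05, 569 genes were higher (3.72%) and 738 lower (4.82%). Both P7 mice were above both P1 mice for 2910 genes (19%) and below them for 3369 (22%). The median log2 fold change over all genes was -0.03. DESeq2 called 290 of these 15306 genes higher and 405 lower, counts to set beside its calls in the lists below. The number of calls depended on the tool and on the P7 mice: DESeq2 called 695 genes, and edgeR called 734 without the female P7 mouse and 90 without the male P7 mouse. Across the 9245 genes with a mean of 10 CPM or more in either group, the change in the female pair and that in the male pair had a Pearson correlation of 0.318 (a description across genes, which are not independent), and 5151 had the same sign.

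**Figure D1:**
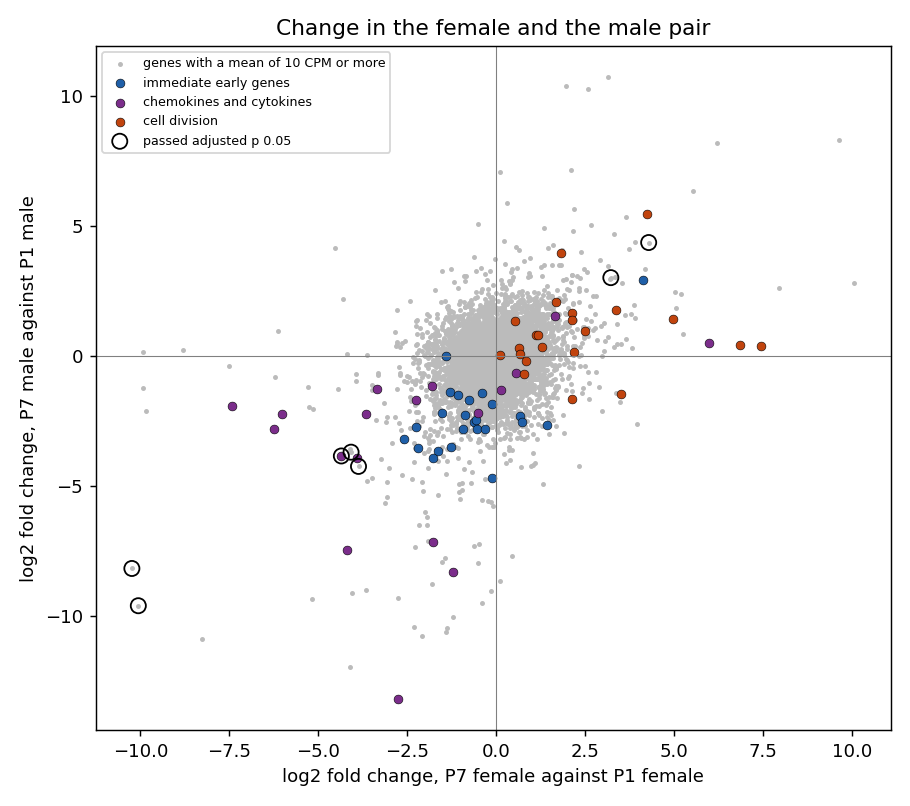
Log2 fold change of P7 against P1 in the female pair (horizontal axis) and in the male pair (vertical axis) for genes with a mean of at least 10 CPM, with the tested members of 3 gene lists in colour and the 7 genes past an adjusted p of 0.05 circled. The 7 circled genes lie far from the centre with the same sign in both pairs, and the chemokines and immediate early genes lie mostly below 0 on both axes.

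The genes that rose encode a methyltransferase and a protein of the tumour protein D52 family. Nnmt, which methylates nicotinamide with S-adenosylmethionine, was at 4.47 CPM in the female and 5.71 in the male at P1 and at 87.4 and 117 at P7. Its log2 fold change was 4.32 ± 0.44 (SE, edgeR adjusted p = 0.0174), and the share of cells with a read went from 3.51% and 1.66% to 21.4% and 20.3%. Tpd52l1 was at 10.7 and 8.74 CPM at P1 and at 99.9 and 70.0 at P7, a log2 fold change of 3.11 ± 0.36 (edgeR adjusted p = 0.0383). A read of Tpd52l1 was found in 3.80% and 2.77% of cells at P1 and in 26.2% and 26.8% at P7. The groups of both genes were far apart, with the female and the male mouse of each age close together. Nnmt was called when each of the 6 mice was left out in turn, and Tpd52l1 was not called without the female P1 mouse (adjusted p = 0.194), the male P1 mouse (0.129) or either hyperoxia mouse (0.0608 and 0.0700).

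The 10 further genes with both P7 mice above both P1 mice had the next smallest p-values and did not pass. Their levels are given as values. Adgrg6, an adhesion G protein-coupled receptor that binds collagen IV and laminin, was at 34.8 and 32.7 CPM at P1 and at 142 and 188 at P7 (log2 2.28 ± 0.30, edgeR adjusted p = 0.0783). Gsta4, a glutathione transferase that conjugates lipid peroxidation products, was at 6.43 and 9.26 CPM and then at 56.6 and 101 (edgeR adjusted p = 0.0814). Cd36, the fatty acid translocase, was at 0.306 and 0.184 CPM at P1 and at 23.4 and 56.6 at P7 (edgeR adjusted p = 0.0975), with a read in 0.585% and 0.277% of cells and then in 8.10% and 9.42%. Fabp3, a fatty acid binding protein, was at 7.59 and 6.75 CPM at P1 and at 41.8 and 67.4 at P7. Cdkn2c, the cyclin-dependent kinase inhibitor p18, was at 26.8 and 38.5 CPM and then at 135 and 161. Spc25, a kinetochore protein, was at 4.48 and 6.38 CPM and then at 33.8 and 82.7. Anxa1, a phospholipid-binding annexin, was at 152 and 116 CPM and then at 437 and 469. Palmd, Plppr5 and Rbmx were the others, with log2 fold changes of 9.28, 3.94 and 1.60 and edgeR adjusted p-values of 0.0975, 0.182 and 0.228. The groups did not overlap for any of these genes, which the naming rule required, and 3 of them, Cd36, Palmd and Plppr5, were below 2 CPM in both P1 mice.

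The genes that fell include an eotaxin, an acute phase protein and a serine protease inhibitor. Ccl11, the eosinophil chemoattractant eotaxin, was at 402 CPM in the female and 369 in the male at P1 and at 19.7 and 25.5 at P7. Its log2 fold change was -4.07 ± 0.39 (SE, edgeR adjusted p = 0.0167). A read of Ccl11 was found in 40.1% and 42.9% of cells at P1 and in 3.81% and 6.52% at P7, so both the summed level and the share of cells were lower in both mice. Chodl, a membrane protein with a C-type lectin domain, was at 44.0 and 48.1 CPM and then at 3.01 and 2.51 (log2 -4.06 ± 0.41, edgeR adjusted p = 0.0174). It was not called without the female (adjusted p = 0.0522) or the male (0.0654) hyperoxia mouse. Gna14, a G protein alpha subunit of the Gq family, was at 19.4 and 25.2 CPM at P1 and at 0.00895 and 0.0230 at P7 (edgeR adjusted p = 0.0167). The P7 levels rest on 5 reads in all against 12875 at P1, a 1627-fold difference with a 95% exact Poisson interval of 697 to 5011 that covers counting error only. A read of Gna14 was found in 6.43% and 9.97% of cells at P1 and in 0% and 0.725% at P7. For Chodl the shares were 6.73% and 11.1% and then 2.86% and 1.45%. The cell with most Chodl reads held 42.4% of the female and 15.4% of the male P1 total, and 54.9% and 77.4% at P7. In the female P1 mouse Chodl was at 16.8 CPM on plate 1 and 65.6 on plate 2. Without the male hyperoxia mouse the edgeR adjusted p of Gna14 was 0.0595.

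Saa3, an acute phase apolipoprotein made by stromal cells and macrophages, was at 54.3 and 86.8 CPM at P1 and at 0.0358 and 0.291 at P7 (log2 -9.03 ± 0.76, edgeR adjusted p = 0.0167). The P1 reads came from few cells. A read was found in 1.46% and 3.60% of P1 cells and in 0% and 0.725% of P7 cells. Without thinning the shares of the ages overlapped, at 2.76% and 5.34% and then at 3.21% and 2.72%. The cell with most reads held 49.1% of the female and 76.9% of the male P1 total. Serpina3g, an intracellular inhibitor of cathepsins, was at 81.0 and 90.3 CPM at P1 and at 4.79 and 6.91 at P7 (log2 -3.88 ± 0.37, edgeR adjusted p = 0.0167), with a read in 16.7% and 20.5% of cells and then in 4.76% and 2.17%. At P7 a single cell held 99.2% of the male reads. With each gene's highest cell left out in every mouse, Serpina3g was lower still at P7 (log2 -6.17) but had an edgeR adjusted p of 0.150, and 6 of the 7 genes were called. Serpina3g belongs to a cluster of near-identical serpin genes and Saa3 to a family of similar apolipoproteins, so reads may have been split between copies.

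The promoter of each called gene was looked up in RefSeq (build GRCm38.p6), which held 5 of the 7. Those of Saa3 and Serpina3g are shown, since these 2 called genes are known as acute phase and inflammation genes and were lower at P7 together. Each run goes from 250 bases before to 50 bases after the transcription start, on the gene's strand. Capitals mark matches on either strand to TTCNNNGAA (STAT), TTGCNNAA (C/EBP) and TGANTCA (AP-1), a choice of motifs made after the values were seen. No matches overlapped.
Saa3, chr7:46715627-46715926, minus strand: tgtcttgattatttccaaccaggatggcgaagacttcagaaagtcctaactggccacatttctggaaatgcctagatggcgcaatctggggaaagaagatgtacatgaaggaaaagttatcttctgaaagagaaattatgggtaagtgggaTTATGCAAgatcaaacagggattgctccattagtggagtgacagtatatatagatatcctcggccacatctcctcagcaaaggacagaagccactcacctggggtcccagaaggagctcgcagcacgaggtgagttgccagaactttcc
Serpina3g, chr12:104235897-104236196, plus strand: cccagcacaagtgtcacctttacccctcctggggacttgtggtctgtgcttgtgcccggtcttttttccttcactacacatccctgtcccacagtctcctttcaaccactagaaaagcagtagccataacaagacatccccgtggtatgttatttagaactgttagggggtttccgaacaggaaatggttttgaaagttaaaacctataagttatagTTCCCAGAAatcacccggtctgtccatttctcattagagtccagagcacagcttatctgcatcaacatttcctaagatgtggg
The window of Saa3 held a C/EBP match and that of Serpina3g a STAT match. None of the other 3 promoters found, those of Gna14, Chodl and Tpd52l1, held any of these letters. Of all 32851 promoters in the table, 8.30% held the STAT letters, 10.8% the C/EBP letters and 7.81% the AP-1 letters. A match is a description of these letters and not a site of binding.

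**Figure D2:**
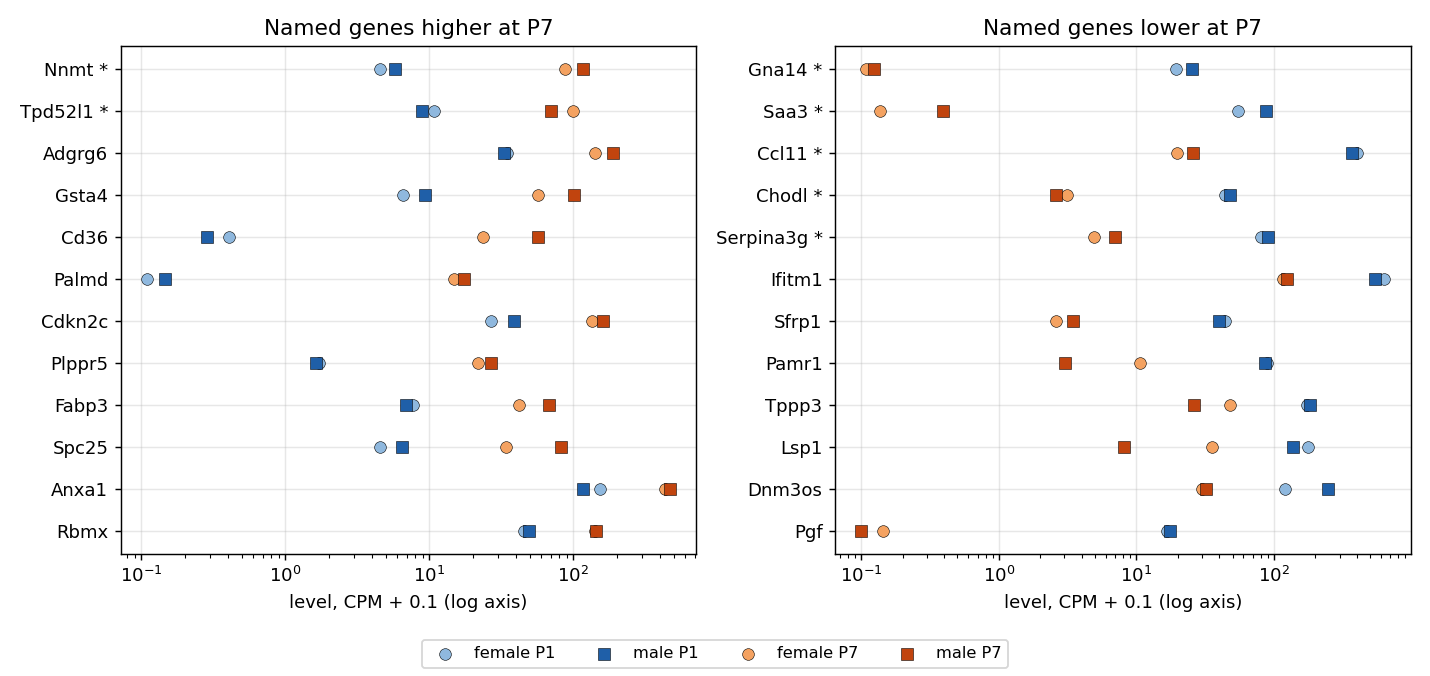
Level of the named genes in each mouse on a log axis of CPM + 0.1, with genes higher at P7 on the left and lower at P7 on the right. Blue points are P1 and orange points P7, circles are females and squares males, and a star marks the 7 genes past an adjusted p of 0.05. For every gene shown both P7 points lie on the same side of both P1 points, which the naming rule required of genes without a star. Nnmt moves from about 5 to about 100 CPM and Ccl11 from about 400 to about 20.

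The 7 other genes with both P7 mice below both P1 mice completed the 12 named in this direction, and none of these passed. Ifitm1, an interferon-induced membrane protein, was at 635 and 539 CPM at P1 and at 117 and 125 at P7 (log2 -2.29 ± 0.30, edgeR adjusted p = 0.0783). Sfrp1, a secreted Wnt antagonist, was at 43.7 and 40.0 CPM and then at 2.51 and 3.35 (log2 -3.87 ± 0.51, edgeR adjusted p = 0.0783), with a read in 17.5% and 18.0% of P1 cells and in 1.91% and 2.17% of P7 cells. Pgf, placental growth factor of the VEGF family, was at 16.6 and 17.4 CPM at P1 and at 0.0447 and 0 at P7 (edgeR adjusted p = 0.140). Dnm3os, the antisense host transcript of a pair of microRNAs, was at 120 and 247 CPM and then at 30.0 and 32.2, and its reads may include those of the overlapping gene, since strand use is not given. Pamr1, Tppp3 and Lsp1 had log2 fold changes of -3.88, -2.34 and -3.16. The levels of all 7 were separated between the ages in these 4 mice, which the naming rule required.

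Chemokines and cytokines had the lowest median of the 24 lists tested in the fit over all mice and in the female pair, whereas in the male pair immediate early genes had a lower one (-2.53 against -2.22). Of 18 members tested, 1 passed and fell (Ccl11), and 15 of 18 had negative log2 fold changes. Their median was -2.86 (female pair -2.50, male pair -2.22) against -0.03 over all genes, and 11 were lower and 1 higher at an unadjusted p below 0.05. Cxcl14, a chemokine of resting tissue, was at 52.6 and 33.8 CPM at P1 and at 4.17 and 7.19 at P7 (log2 -3.02 ± 0.58, edgeR adjusted p = 0.256). Tslp, a cytokine that acts on dendritic and innate lymphoid cells, was at 31.1 and 31.6 CPM and then at 6.54 and 9.78 (edgeR adjusted p = 0.298). Cxcl12, the ligand of Cxcr4, was at 66.9 and 104 CPM and then at 47.2 and 22.6, so the female change was small. In each of these the share of cells with a read was lower in both P7 mice, at 8.10% and 6.52% for Cxcl14 against 25.4% and 17.2% at P1.

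Il6 and Cxcl1, cytokines of acute inflammation, differed more between the mice. Il6 was at 50.9 and 159 CPM at P1 and at 7.56 and 0.00766 at P7, and Cxcl1 at 163 and 269 and then at 47.7 and 1.89 (edgeR adjusted p = 0.578 and 0.625). Ccl2 and Ccl7, monocyte chemoattractants with similar sequences, had lower P7 levels that rest on few cells: 1 cell held 92.8% and 81.1% of the P1 reads of Ccl2. Cxcl13, a B cell chemoattractant, ran the other way, at 4.77 and 10.7 CPM at P1 and at 15.0 and 31.2 at P7 (edgeR adjusted p = 0.578). DESeq2 called 7 members of the list lower and 0 higher. The immune marker sum was higher at P7 in both mice, mostly through Lyz2. Of 7 immune markers tested, 1 was higher in both P7 mice than in both P1 mice. The part of immune cells in the chemokine values was not tested.

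Complement genes were mostly lower at P7 in value. Of 17 complement genes tested, none passed in edgeR, 6 were lower and 1 higher at an unadjusted p below 0.05, and DESeq2 called 2 lower and 1 higher. Of these 17 genes, 14 had negative log2 fold changes, and both P7 mice were below both P1 mice for 11 (22% of all genes) and above them for 2 (19%). The median log2 was -1.00, and -1.71 without the female P7 mouse. C4b, a classical pathway component with a near-identical copy, was at 27.0 and 21.3 CPM at P1 and at 0.738 and 0.0230 at P7 (edgeR adjusted p = 0.322). C1s1, the serine protease of the C1 complex, was at 69.5 and 76.2 CPM and then at 44.5 and 27.5. C7, of the membrane attack complex, was at 69.9 and 46.2 CPM and then at 93.3 and 228. Of 26 MHC class I and interferon response genes, none passed in edgeR and 3 were lower and 3 higher at an unadjusted p below 0.05, while DESeq2 called 2 lower and 2 higher. Their median log2 was -0.45, with 19 of 26 negative, and -0.24 without the female P1 mouse. Ifitm3, which restricts virus entry, was at 957 and 975 CPM and then at 368 and 465, whereas Ifi27, an interferon-induced protein, was at 151 and 109 and then at 274 and 413.

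**Figure D3:**
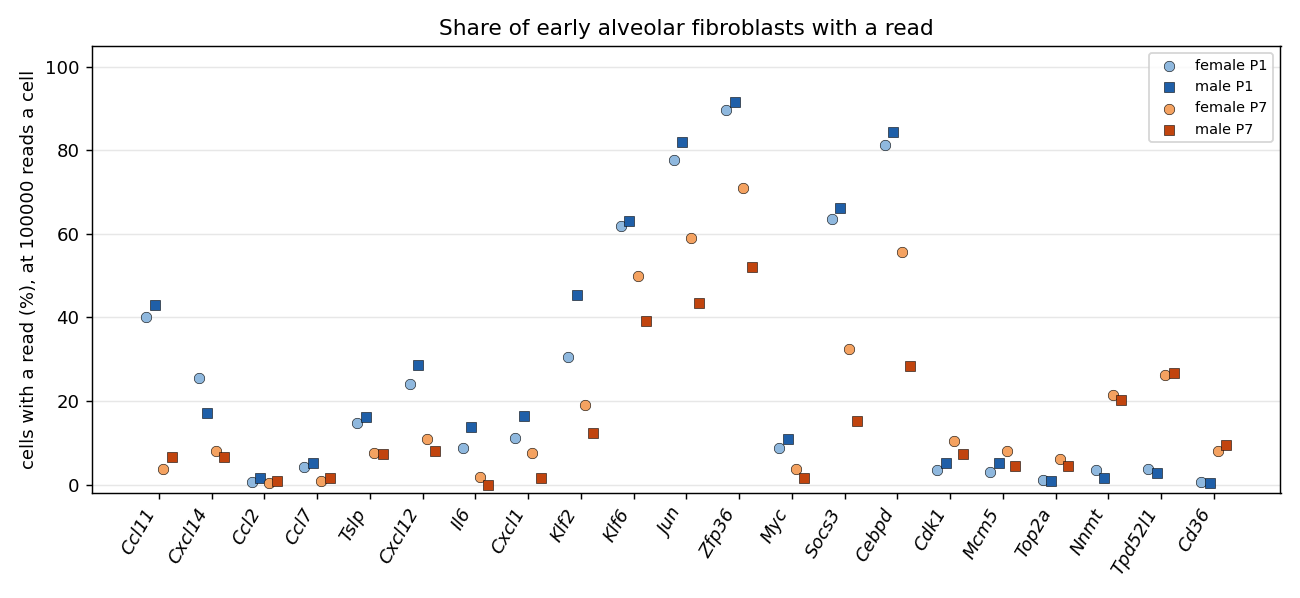
Share of cells with at least 1 read after thinning to 100000 reads, with cells below that depth left out. The genes are from the chemokine, immediate early, glucocorticoid and cell division lists, with 3 of the genes named above. Ccl11 stands at 40.1% and 42.9% at P1 and 3.81% and 6.52% at P7, and the male P7 mouse is the lowest of the 4 for Klf2, Jun, Zfp36 and Socs3.

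Immediate early genes, transcription factors and feedback proteins induced within minutes of a stimulus or of tissue handling, were lower at P7 in value, but none passed in edgeR. Of 24 tested, 22 had negative log2 fold changes with a median of -1.44, and 14 were lower and 0 higher at an unadjusted p below 0.05. DESeq2 called 13 lower and 0 higher. Zfp36, which destabilises cytokine mRNA, was at 1468 and 2049 CPM at P1 and at 474 and 164 at P7 (log2 -2.48 ± 0.55, edgeR adjusted p = 0.299). Jun, a subunit of AP-1, was at 1126 and 1234 CPM and then at 391 and 267, and Fos, its partner, at 5710 and 8548 and then at 3851 and 1535. Klf2 was at 94.6 and 136 CPM and then at 15.6 and 14.7 (log2 -2.86 ± 0.45, edgeR adjusted p = 0.140). Socs3, the inhibitor of cytokine receptor signalling, was at 366 and 510 CPM and then at 106 and 33.7.

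The size of the immediate early difference was not the same in the pairs. The list's median was -0.81 in the female pair and -2.53 in the male pair, the latter within 1 sequencing run apart from 7 male P7 cells. Without the male P7 mouse it was -0.68, and without the female P7 mouse -2.59. The list's reads summed to 28481 and 36789 CPM at P1 and to 16227 and 6007 at P7, and the median cell had 25968 and 34238 CPM at P1 and 14577 and 3652 at P7, so the lower level was not held by a few cells. Genes detected per cell were also lowest in the male P7 mouse, and the part of cell handling in these values was not tested. Of 17 glucocorticoid response genes, none passed in edgeR, 3 were lower and 0 higher at an unadjusted p below 0.05, and DESeq2 called 3 lower. Cebpd, a transcription factor induced by glucocorticoids and cytokines, was at 787 and 1066 CPM and then at 250 and 87.6 (edgeR adjusted p = 0.270).

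Cell division genes had the highest median of the 24 lists. Of 22 tested, none passed in edgeR, 21 had positive log2 fold changes, and 8 were higher and 0 lower at an unadjusted p below 0.05, with 8 called higher by DESeq2. The median was 1.66, at 1.97 in the female pair and 0.60 in the male pair. It depended on single mice, also on those outside the contrast: it was 0.74 without the female P7 mouse, 1.08 without either hyperoxia mouse and 1.08 with the 4 mice of the contrast alone. Cdk1, the mitotic kinase, was at 10.4 and 15.2 CPM at P1 and at 45.2 and 46.9 at P7 (log2 1.87 ± 0.43, edgeR adjusted p = 0.315). Mcm5, a subunit of the replicative helicase, was at 12.4 and 17.9 CPM and then at 54.9 and 46.3. Top2a, the topoisomerase that resolves chromosomes, was at 0.564 and 0.198 CPM and then at 10.9 and 9.00, and Rrm2, a subunit of ribonucleotide reductase, was at 1.66 and 3.65 and then at 52.2 and 9.69.

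The list's reads summed to 310 and 307 CPM at P1 and to 682 and 461 at P7. The median cell had 125 and 101 CPM of the list at P1 and 248 and 110 at P7, so that the male median cell was near its P1 level. Single mitotic genes were found in fewer cells. A read of Mki67 or Top2a was found in 6.35% and 5.34% of P1 cells and in 11.9% and 10.9% of P7 cells without thinning, and at 100000 reads per cell Top2a was found in 1.17% and 0.831% and then in 6.19% and 4.35%. At P7 the cell with most reads held 93.7% of the male Mki67 total and 57.3% of the male Top2a total. Cells that the authors had labelled as proliferating are separate subtypes and were not part of these sums. Cdkn2c, a gene that restrains division, had higher values at P7 together with these genes.

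**Figure D4:**
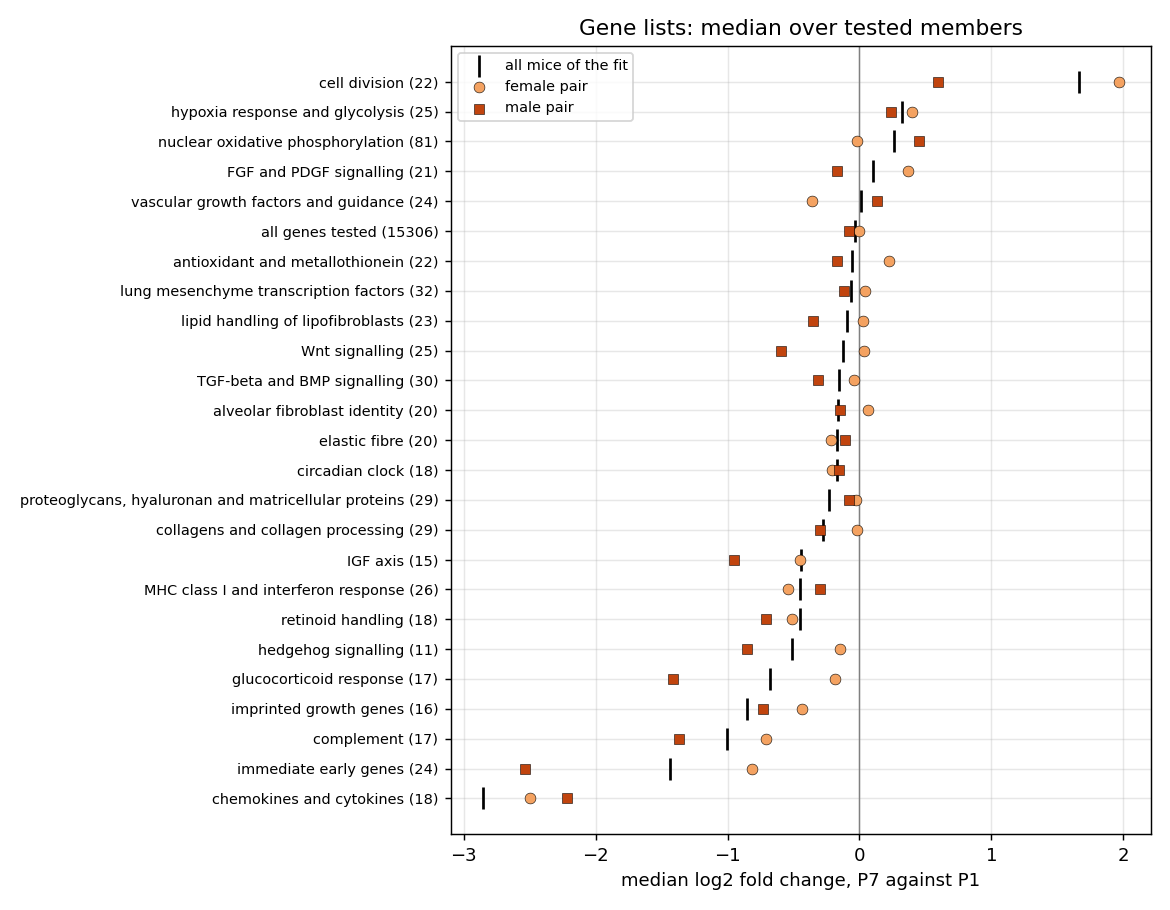
Median log2 fold change of P7 against P1 over the tested members of each gene list, with the number of members in brackets. The black bar is the fit over all mice, the circle the female pair and the square the male pair, and chemokines and cytokines (-2.86) and cell division (1.66) stand at the ends of the range of the black bars. In the male pair the lowest list is that of the immediate early genes (-2.53).

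Of 20 genes of alveolar fibroblast identity none passed in edgeR, with 2 higher and 3 lower at an unadjusted p below 0.05 and 1 called in each direction by DESeq2. Limch1 was at 3940 and 5078 CPM at P1 and at 4400 and 4401 at P7, so that the ages overlapped. Npnt, the ligand nephronectin of integrin alpha 8, was at 691 and 642 CPM and then at 1262 and 1425 (log2 1.00 ± 0.29, edgeR adjusted p = 0.431). Itga8, its receptor subunit, was at 206 and 141 CPM and then at 212 and 309. Vegfd, a vascular growth factor, was at 493 and 598 CPM and then at 797 and 1007. Lower values were seen for Inmt, a methyltransferase of indolamines, at 1136 and 532 CPM and then at 114 and 321, with a read in 40.4% and 35.5% of P1 cells and 9.52% and 9.42% of P7 cells. Pdgfra, the PDGF receptor of the lineage, was at 72.0 and 48.0 CPM and then at 24.6 and 33.3. Tcf21 was at 937 and 856 CPM and then at 1275 and 387, on either side of the P1 level.

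Lipid handling genes of lipofibroblasts had no common direction. Of 23 tested, none passed in edgeR, 4 were higher and 3 lower at an unadjusted p below 0.05, DESeq2 called 2 in each direction, and the median log2 was -0.09, and 0.06 without the male P1 mouse. Beside Cd36, Abca1, the cholesterol exporter, was at 9.18 and 7.98 CPM at P1 and at 23.8 and 32.4 at P7 (edgeR adjusted p = 0.377). Lpl, lipoprotein lipase, was at 17.9 and 16.8 CPM and then at 49.2 and 27.6, and Scd2, a fatty acid desaturase, at 70.6 and 77.9 and then at 102 and 143. Apoe, the apolipoprotein, was at 1015 and 826 CPM and then at 435 and 344 (log2 -1.24 ± 0.28, edgeR adjusted p = 0.311). Pparg, the regulator of lipid storage, was at 5.90 and 10.5 CPM and then at 30.1 and 13.2. Of 18 retinoid genes, none passed in edgeR, 1 was higher and 1 lower at an unadjusted p below 0.05, and DESeq2 called 1 higher. Crabp1, a retinoic acid binding protein, was at 7.64 and 7.54 CPM and then at 38.3 and 45.5, while Dhrs3, a retinal reductase, was at 128 and 159 and then at 86.3 and 96.0.

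Matrix genes split by member. Of 20 elastic fibre genes, none passed in edgeR, 1 was higher and 2 lower at an unadjusted p below 0.05, and DESeq2 called 1 in each direction. Eln, tropoelastin, was at 1647 and 1454 CPM at P1 and at 691 and 482 at P7 (log2 -1.40 ± 0.37, edgeR adjusted p = 0.377), and its share of cells with a read went from 95.6% and 92.8% to 84.8% and 77.5%. Fbln5, the fibulin that tethers elastin to cells and microfibrils, was at 650 and 829 CPM and then at 2094 and 1250 (log2 1.14 ± 0.35, edgeR adjusted p = 0.472). The 2 genes thus had opposite values in both pairs of mice. Mfap4, a microfibril protein and also a marker of the lineage, was at 20721 and 22830 CPM and then at 17983 and 29626, so that the ages overlapped. Over the 29 collagen genes tested, none passed in edgeR and 2 were lower at an unadjusted p below 0.05, with 1 called lower by DESeq2. Col14a1, a fibril-associated collagen, was at 102 and 57.3 CPM and then at 22.4 and 12.7 (log2 -2.18 ± 0.38, edgeR adjusted p = 0.211), and Col13a1, a transmembrane collagen of the lineage, at 241 and 203 and then at 118 and 98.2.

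Of 29 proteoglycan, hyaluronan and matricellular genes, none passed in edgeR, 3 were higher and 6 lower at an unadjusted p below 0.05, and DESeq2 called 2 higher and 4 lower. Tnc, tenascin C, was at 255 and 234 CPM at P1 and at 513 and 592 at P7 (log2 1.18 ± 0.27, edgeR adjusted p = 0.315). Thbs1, thrombospondin 1, was at 801 and 826 CPM and then at 343 and 131, where 1 cell held 42.9% of the male P7 reads. Has2, a hyaluronan synthase, was at 8.21 and 7.56 CPM and then at 0.0224 and 0.337, and Prelp, a small leucine-rich proteoglycan, at 87.9 and 84.5 and then at 39.3 and 36.7. The contractile marker sum was also lower at P7 and the adventitial sum higher, the latter through Dpt, Mfap5 and Cd34. Dpt was at 824 and 925 CPM and then at 1644 and 1688, while Col14a1, another adventitial marker, was lower.

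In the insulin-like growth factor axis 11 of 15 genes had negative log2 fold changes. Of the 15, none passed in edgeR, 5 were lower and 1 higher at an unadjusted p below 0.05, and DESeq2 called 4 lower and 1 higher, with a median log2 of -0.44. The median was lower with other sets of mice, at -0.88 with the 4 mice of the contrast alone, -0.87 without either hyperoxia mouse, -0.80 without the female P1 mouse and -1.21 without the female P7 mouse. Igf2bp3, an RNA-binding protein of fetal tissue, was at 78.5 and 115 CPM at P1 and at 24.4 and 9.38 at P7 (log2 -2.67 ± 0.50, edgeR adjusted p = 0.240), and Igf2bp2, its relative, at 27.7 and 19.3 and then at 7.39 and 1.52. Igf1 was at 381 and 328 CPM and then at 236 and 158. Of 16 imprinted growth genes, none passed in edgeR, 3 were lower and 0 higher at an unadjusted p below 0.05, and DESeq2 called 1 lower. These were Igf2, at 11.9 and 4.64 CPM and then at 0.912 and 0.827, Mest, at 257 and 268 and then at 151 and 139, and Peg3, at 551 and 530 and then at 336 and 174.

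Receptors, ligands and feedback genes of other pathways were counted by list. At an unadjusted p below 0.05, 3.72% of all genes were higher and 4.82% lower, shares to set beside these counts. In hedgehog signalling none of 11 genes passed in edgeR and DESeq2 called 0, with 2 lower at an unadjusted p below 0.05: Gli1, the pathway's target and effector, at 28.9 and 23.4 CPM and then at 13.5 and 6.99, and Gli2 at 86.6 and 78.2 and then at 51.4 and 42.8. In FGF and PDGF signalling none of 21 passed in edgeR, 3 were lower and 1 higher at an unadjusted p below 0.05, and DESeq2 called 2 lower. Spry2, a feedback inhibitor induced by FGF, was at 19.4 and 42.4 CPM and then at 6.93 and 5.03, and Fgfr1, an FGF receptor, at 104 and 116 and then at 142 and 215. In Wnt signalling none of 25 passed in edgeR, Sfrp1 alone was lower at an unadjusted p below 0.05, and DESeq2 called 2 lower. Axin2, a target of canonical Wnt signalling, was at 37.9 and 39.9 CPM and then at 23.8 and 19.0. In TGF-beta and BMP signalling none of 30 passed in edgeR, 2 were lower at an unadjusted p below 0.05, and DESeq2 called 2 lower.

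Of 24 vascular growth and guidance genes, none passed in edgeR, 3 were higher and 6 lower at an unadjusted p below 0.05, and DESeq2 called 2 higher and 3 lower. Slit2, a repulsive guidance ligand of Robo receptors, was at 391 and 434 CPM at P1 and at 931 and 1039 at P7 (log2 1.26 ± 0.28, edgeR adjusted p = 0.297), with a read in 76.6% and 81.7% of cells and then in 92.4% and 89.9%. Nrp1, a receptor of semaphorins and VEGF, was at 211 and 217 CPM and then at 85.8 and 141. None of 32 lung mesenchyme transcription factors was past even an unadjusted p of 0.05 in edgeR, and DESeq2 called 0. Of 18 circadian clock genes none passed in edgeR, 1 was lower at an unadjusted p below 0.05, and DESeq2 called 1 lower.

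The metabolic lists had small median changes, with members in both directions. Of 25 hypoxia response and glycolysis genes, none passed in edgeR, and 3 were higher and 3 lower at an unadjusted p below 0.05. DESeq2 called 2 in each direction. Of the 25, 18 had positive log2 fold changes, with a median of 0.32 (female pair 0.40, male pair 0.24). Both P7 mice were above both P1 mice for 10 (19% of all genes) and below them for 3 (22%). Slc2a1, the glucose transporter GLUT1, was at 18.5 and 15.2 CPM at P1 and at 5.07 and 1.81 at P7, and Hk2, hexokinase 2, at 28.3 and 25.1 and then at 6.71 and 4.43. Pkm, pyruvate kinase, was at 53.0 and 59.1 CPM and then at 124 and 92.9, and Adm, the vasodilator peptide adrenomedullin, at 38.7 and 39.0 and then at 84.3 and 137. Of 22 antioxidant genes, none passed in edgeR, 1 was higher and 1 lower at an unadjusted p below 0.05, and DESeq2 called 0. These were Prdx2, a peroxiredoxin, at 414 and 424 CPM and then at 693 and 909, and Gstm1, a glutathione transferase, at 343 and 272 and then at 162 and 191. Of 81 nuclear oxidative phosphorylation genes, 67 had positive log2 fold changes, with a median of 0.26. That sign rested on the male P7 mouse: the median was 0.45 in the male pair and -0.02 in the female pair, and -0.10 without the male P7 mouse. None of the 81 passed in edgeR, 2 were lower at an unadjusted p below 0.05, and DESeq2 called 0.

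The change from P1 to P7 was then compared with that of early adventitial fibroblasts, the fibroblasts of the sheaths around airways and vessels, with the mouse as a block. They numbered 138 and 67 cells at P1 and 49 and 55 at P7. Of 16111 genes tested, 0 (0%) differed in their change in edgeR, 1405 were at an unadjusted p below 0.05, and DESeq2 called 903. The smallest p was that of Adgrg6, at 33.8 and 31.6 CPM at P1 and 137 and 182 at P7 in early alveolar fibroblasts, and at 17.9 and 18.4 and then 0.392 and 1.07 in adventitial ones (difference of log2 changes 7.05 ± 0.53, edgeR adjusted p = 0.0674). Col14a1 was at 99.1 and 55.4 CPM and then at 21.5 and 12.3 in early alveolar fibroblasts and at 810 and 636 and then at 1508 and 1556 in adventitial ones (difference -3.28 ± 0.33, edgeR adjusted p = 0.173). C1s1 was at 67.6 and 73.6 CPM and then at 42.7 and 26.6 against 186 and 217 and then 481 and 322 (difference -2.04 ± 0.24). Lrrc32, which anchors latent TGF-beta at the cell surface, was at 7.66 and 7.59 CPM and then at 0 and 0.00740, against 24.7 and 23.5 and then 22.7 and 31.4. Aqp1, a water channel, was at 1.26 and 1.99 CPM and then at 0.00858 and 0, against 1.84 and 5.72 and then 57.9 and 13.1. In all 5 genes except Lrrc32 the values of the 2 subtypes ran in opposite directions in both sexes.

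The same comparison was made with myofibroblasts, the contractile fibroblasts of the alveolar ducts and septal tips. In it 3 of 15918 genes differed in their change (0.0188%), all with the lower change in early alveolar fibroblasts. The median difference of log2 changes over all genes tested was itself -0.49, against 0.07 in the comparison with early adventitial fibroblasts. The myofibroblasts numbered 39 and 32 cells at P1 and 155 and 184 at P7. Eln was at 1677 and 1465 CPM at P1 and at 694 and 482 at P7 in early alveolar fibroblasts, and at 530 and 454 and then at 2135 and 1572 in myofibroblasts. The difference of the log2 changes was -3.34 ± 0.22 (SE, edgeR adjusted p = 0.0127). The subtype with the higher Eln level was the early alveolar fibroblast at P1 and the myofibroblast at P7, in the female and in the male. Fbln5 was at 662 and 835 CPM and then at 2101 and 1248 in early alveolar fibroblasts, and had 0 reads in both P1 mice against 70.2 and 33.1 CPM at P7 in myofibroblasts (edgeR adjusted p = 0.0127). By counting error alone, with 3 reads over the P1 group as the limit, Fbln5 in myofibroblasts was at least 869-fold higher at P7. That limit does not cover the small number of P1 cells. The level stayed far above that of myofibroblasts in early alveolar fibroblasts at both ages.

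Rtn2, a reticulon of the endoplasmic reticulum, was at 106 and 88.6 CPM and then at 79.8 and 57.8 in early alveolar fibroblasts, and at 0.249 and 0.208 and then at 40.3 and 26.1 in myofibroblasts (difference -7.66 ± 0.61, edgeR adjusted p = 0.0296). The next genes did not pass. Hspb2, a small heat shock protein, was at 68.2 and 49.8 CPM and then at 82.9 and 144, against 0 reads at P1 and 24.2 and 30.6 CPM at P7. Pgf was at 16.9 and 17.5 CPM and then at 0.0449 and 0 in early alveolar fibroblasts, against 2.24 and 0.521 and then 156 and 79.8 in myofibroblasts (edgeR adjusted p = 0.0542), so its values ran in opposite directions in the 2 subtypes. DESeq2 called 1049 genes in this comparison, 257 with the higher and 792 with the lower change in early alveolar fibroblasts. The edgeR calls depended on single mice: without the female P7 mouse the adjusted p was 0.117 for Eln, 0.0706 for Fbln5 and 0.130 for Rtn2, and without the male P7 mouse 0.130, 0.111 and 0.205. Without either hyperoxia mouse Eln had 0.0631 and 0.0717 and Rtn2 had 0.0933 and 0.0912, and without the male P1 mouse Rtn2 had 0.0502.

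**Figure D5:**
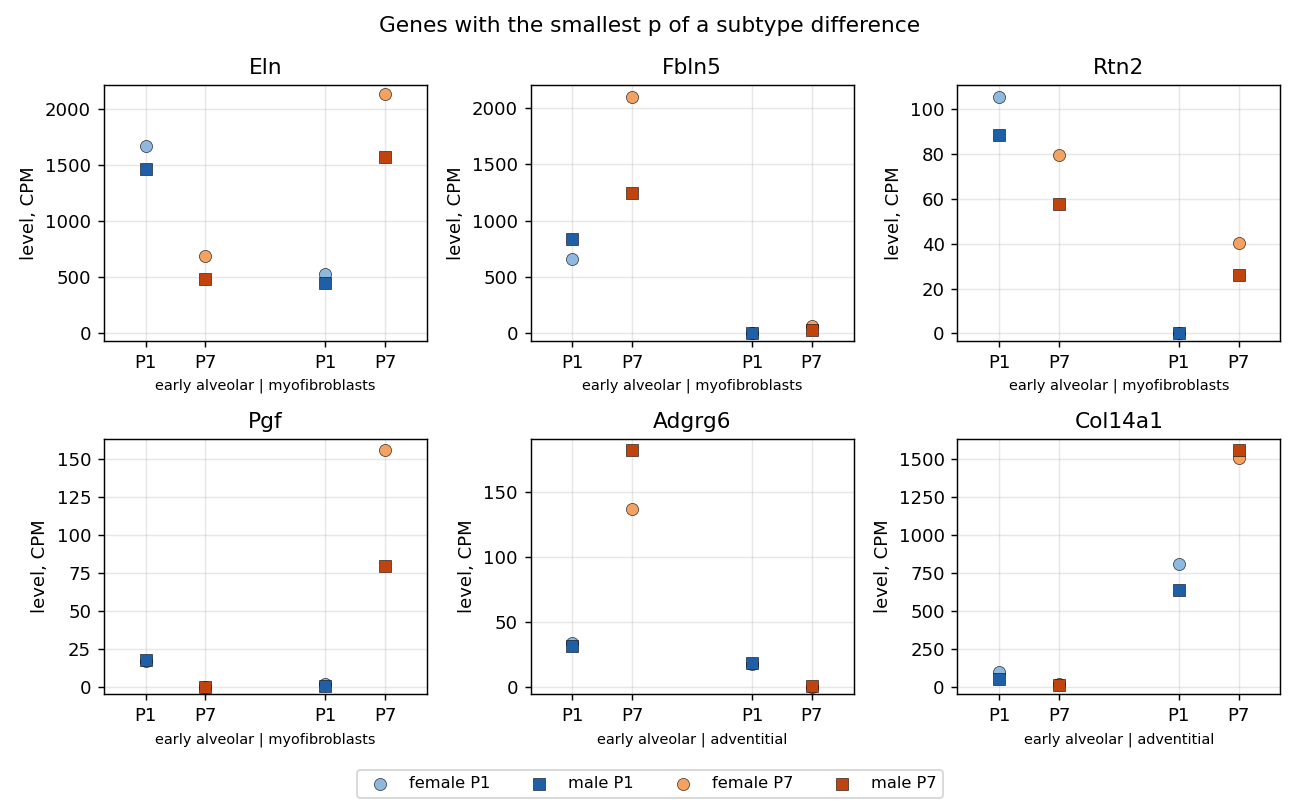
Level in CPM per mouse at P1 and P7 in early alveolar fibroblasts (left pair of each panel) and in myofibroblasts or early adventitial fibroblasts (right pair), for 6 of the genes with the smallest p of a difference in change. Circles are females and squares males. The Eln panel shows early alveolar fibroblasts going from 1677 and 1465 to 694 and 482 CPM and myofibroblasts from 530 and 454 to 2135 and 1572.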

How the data were processed

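Single mesenchymal cells of distal lung had been sequenced from plates, and the deposited counts are whole reads per gene and cell, with no molecular identifiers named in the labels. Per the submitters' processing notes, STAR 2.5.2b and HTSeq 0.10 were used, and the build named there is GRCh38, a human build, although the samples are mouse. The annotation, strand setting and filters are not given in the sources used here, so the values of paralogs and of overlapping genes carry that uncertainty. The table held 18072 genes, with 0 mitochondrial genes and 0 members of the ribosomal protein list, which was therefore not analysed. Subtypes, mice, sexes and runs came from the labels, and whether doublets had been removed is not given in the sources used here.

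Reads were summed per mouse and subtype and tested with edgeR 4.0.16 (R 4.3.3): filterByExpr, TMM, quasi-likelihood test, group and sex terms, 6 mice, 2 residual degrees of freedom, Benjamini-Hochberg adjustment and a threshold of 0.05. Differences between subtypes were tested as interactions with the mouse as a block (12 libraries, 3 residual degrees of freedom). Standard errors are the absolute log2 fold change divided by the root of the F statistic. Levels within the pairs used a prior count of 2. The labels give 1 mouse name per sex and group, and p-values measure only the spread between these. DESeq2 1.42.0, other scalings, no filter, other sets of mice, plates or cells, and thinning to 100000 or 50000 reads were tried as alternatives. The code was tested on simulated data. Intervals and limits cover counting error only.

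Genes were named by a rule: from the called genes that reached 10 CPM on average at either age and had the same sign in both sexes, up to 12 with the largest change in each direction, filled up with the smallest p-values among genes whose groups do not overlap. List members were named from those with the smallest p and those that define a list, and the 5 smallest p-values of each interaction were named. The cells, the lists, the rule and the tests were chosen with earlier results of these data known. Promoters are from RefSeq, build GRCm38.p6. Results for certain items are not reported here.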

Additional observations from a re-analysis of the deposited data

Results flagged for a closer look

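The change from P1 to P7 differed between early alveolar fibroblasts and myofibroblasts for 3 genes, by the interaction test itself. For Eln the difference of log2 changes was -3.34 (edgeR adjusted p = 0.0127), with lower levels at P7 in both early alveolar libraries and higher levels in both myofibroblast libraries. For Fbln5 the fitted difference was -14.7 (edgeR adjusted p = 0.0127), a value that depends on the prior count because myofibroblasts had 0 reads in both P1 mice and that is no bound. For Rtn2 it was -7.66 (edgeR adjusted p = 0.0296), with 6 reads in each P1 library of myofibroblasts. With 32 to 39 myofibroblasts per P1 mouse, the part of the small cell number in these differences was not tested. Groups of 2 mice were too small to look for single outlying samples.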

How the results depend on the processing

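The 7 calls of the P1 to P7 comparison became 13 with no filter on low counts, 695 with DESeq2, 3 with the 4 mice of the contrast alone, 12 without a sex term, 77 with cells thinned to 100000 reads, 0 with plate 1 alone (edgeR, 824 genes at an unadjusted p below 0.05), 4 with plate 2 alone, 6 with the mesenchymal sort and main run alone (Tpd52l1 at an adjusted p of 0.0502) and 15 without each gene's highest cell in each mouse (chosen after seeing the data). Leaving out 1 mouse gave 4 to 734 calls. Nnmt and Saa3 were called in 16 of 17 alternatives, Ccl11 in 15, Gna14 and Serpina3g in 13, Chodl in 12 and Tpd52l1 in 9. The comparison with early adventitial fibroblasts gave 1 call instead of 0 with no filter, 903 with DESeq2 and 0 to 30 without 1 mouse, the 30 without the female P7 mouse. The comparison with myofibroblasts gave 5 calls instead of 3 with no filter, 1049 with DESeq2, 0 with 4 mice (edgeR, 969 at an unadjusted p below 0.05) and 0 to 40 without 1 mouse, the 40 without the female P1 mouse. A fit that leaves 1 mouse in a group assumes that it varies like the others. Over 98 named genes and 1862 alternative values, 1852 kept their direction and 10 did not, all of them of genes with small differences. Part of this was set by the choice of genes, since those named by the rule needed the same sign in both sexes. Many list members were also named for a small p, and the fits share mice. Limch1 was at 0.0151 when thinned, 0.0497 on plate 1, 0.10 without the highest cells and 0.16 within females, and Tcf21 was at 0.44 and Mfap4 at -0.20 within females. Without 1 mouse, Limch1 ranged from -0.21 to 0.13, Tcf21 from -1.37 to 0.62 and Mfap4 from -0.42 to 0.55, each with the sign turned when the male P7 mouse was left out and, for Limch1, also the male P1 mouse. The cause of these differences was not tested. The labels carry no replicate numbers. No paired analysis was possible because no numbers tie mice of different ages; the sex term is the only pairing. The difference in genes per cell, a fall of 301 between group means, stayed within its spread between mice under 50000 reads and no thinning, and was -430 to -172 without 1 mouse. Some genes had few reads at P7, Gna14, Saa3 and Pgf among them, so the sizes of their fold changes are imprecise.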
